A study of Mus musculus with 3 samples.

Results

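The genes described here are 10 markers of trophoblast and of simple epithelium, read from RNA-seq of mouse embryonic stem (ES) cells with and without Pcgf1. They are the 6 transcription factors Cdx2, Elf5, Tfap2a, Tfap2c, Gata3 and Hand1 and the 4 keratins Krt7, Krt8, Krt18 and Krt19. Members were taken by gene symbol, and 8 of the 10 were listed under their own name in all 3 samples, out of 25350 such genes. Krt19 had its own name in WT and Pcgf1-/- but shared a locus name with Krt15 in the third sample, and Gata3 shared a locus name with the antisense gene 9230102O04Rik throughout, so these values are given apart.

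The experiment compared 3 kinds of ES cells of the C57BL/6 strain, with 1 sample of each and no replicates. WT cells carried intact Pcgf1. Pcgf1-/- (knockout) cells came from Cas9 cutting with guides to exons 2 and 3 of Pcgf1, followed by growth of single colonies, and Pcgf1-/-+Pcgf1 cells were the same knockout given FLAG-tagged Pcgf1 by lentivirus and selected with puromycin (rescued cells). All 3 were grown in serum and leukemia inhibitory factor on mitomycin-C treated mouse embryonic fibroblast (MEF) feeders, so feeder RNA could enter each library. Effects of the clone, the virus and the selection cannot be told apart from those of Pcgf1.

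Trophoblast is the outer lineage of the early embryo and later forms most of the placenta. Cdx2, Elf5, Gata3 and Tfap2c belong to the network of transcription factors that specifies trophoblast and keeps its stem cells, Tfap2a is a related AP-2 factor, and Hand1 is needed by trophoblast giant cells. Krt8 and Krt18 pair into the intermediate filaments of simple epithelia, which include trophoblast, with Krt7 and Krt19 as further members of that filament set.

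The authors deposited the abundance of transcripts as FPKM (fragments scaled by transcript length and by the fragments mapped in the library). The files hold no counts, so the depth of the libraries is unknown. Between 62.0% and 63.6% of the listed transcript events were at 0. Pcgf1, the targeted gene, had an FPKM of 13.9523 in WT, 5.8842 in the knockout and 7.8619 in the rescued cells. This FPKM covers the whole gene and does not resolve the deleted exons. ES cell markers summed to an FPKM between 1896 and 2128 in the 3 samples, over the 8 of 10 markers with their own name in all of them. The trophoblast giant cell and spongiotrophoblast markers Prl3d1 and Tpbpa were listed at 0 in every sample. A list of trophoblast stem cell markers, which also holds Prl3d1 and Tpbpa, had 7 listed genes, 3 of them members described here. It summed to 13.3 in WT, 26.9 in the knockout and 20.97 in the rescued cells. Most of each sum was the member Tfap2c, at 9.10, 19.4 and 16.6. ES cell markers were thus high in all 3 samples, and the members are read as genes within ES cultures. Whether a minor part of the cells was trophoblast-like was not tested. In bulk RNA, fewer cells of a type and less RNA per cell cannot be told apart.

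The levels of the members spanned a wide range in WT. FPKM is a value per length, so levels can be set beside each other between genes. Krt8 stood at 68.9, higher than 92.8% of the genes above 0, followed by Krt18 at 61.1 (91.9%) and Krt19 at 32.8 (84.5%). Tfap2c was the highest of the trophoblast factors, at 9.10, higher than 61.0% of the genes above 0. Krt7 stood at 1.72, and the rest were below 1 FPKM, with Gata3 at 0.587 in its joined name, Cdx2 at 0.252, Tfap2a at 0.198 and Elf5 at 0.153. Hand1 was listed at 0. With 1 sample per group, no spread is known by which to separate neighbours in this order.

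**Figure D1:**
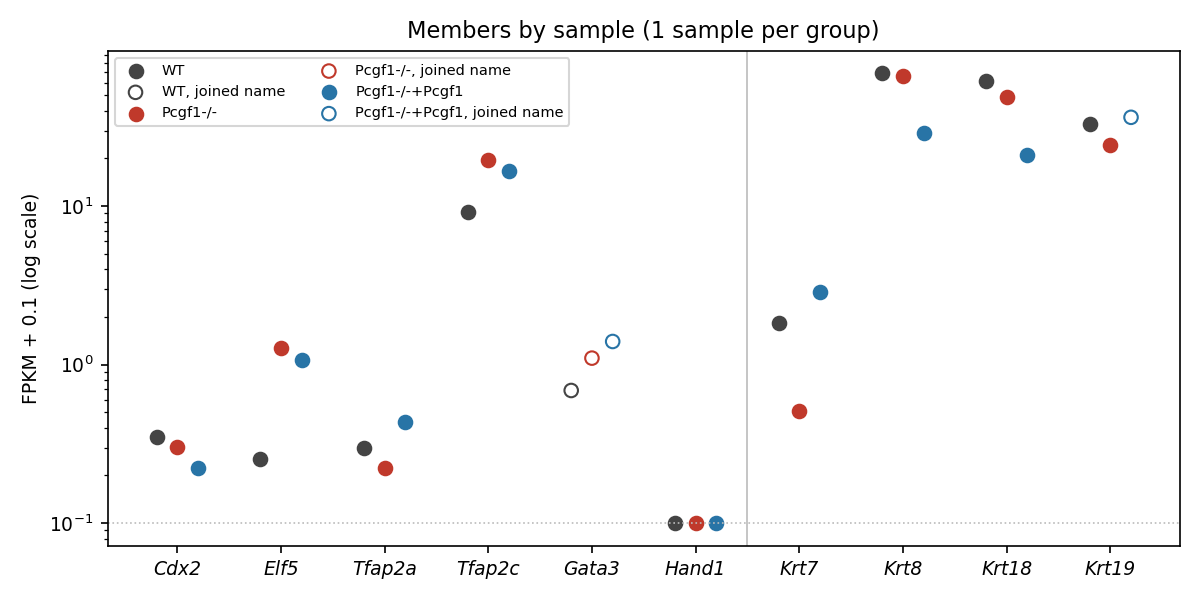
FPKM plus 0.1 of each of the 10 members (log scale) in WT, Pcgf1-/- and Pcgf1-/-+Pcgf1, 1 point per sample, with open circles for values from a joined name and the dotted line marking a value of 0. Krt8, Krt18 and Krt19 are the highest members in each sample. The WT point is the lowest of the 3 samples for Elf5, Tfap2c and Gata3. For Tfap2a, Krt7 and Krt19 the lowest point is that of Pcgf1-/-.

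Ratios were formed from FPKM + 0.1, and a gene was called different when the ratio was over 2-fold, which is over 1 on the log2 scale. The added 0.1, a pseudocount, understates the change of genes of low FPKM. No test was possible with 1 sample per group, and no call has a replicate check. The first question was which members differed without Pcgf1. Between Pcgf1-/- and WT, 3 of the 9 listed members passed 2-fold, against 7.23% of all 25613 genes, and Elf5 and Tfap2c were the higher ones and Krt7 the lower one. Of all genes 2.16% were higher and 5.08% were lower, and of those that reached 1 FPKM in either sample 6.2% were lower. The median log2 ratio of the members was -0.21, beside 0 for all genes, many of which are at 0 in both samples, and -0.09 for genes that reached 1 FPKM in either.

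**Figure D2:**
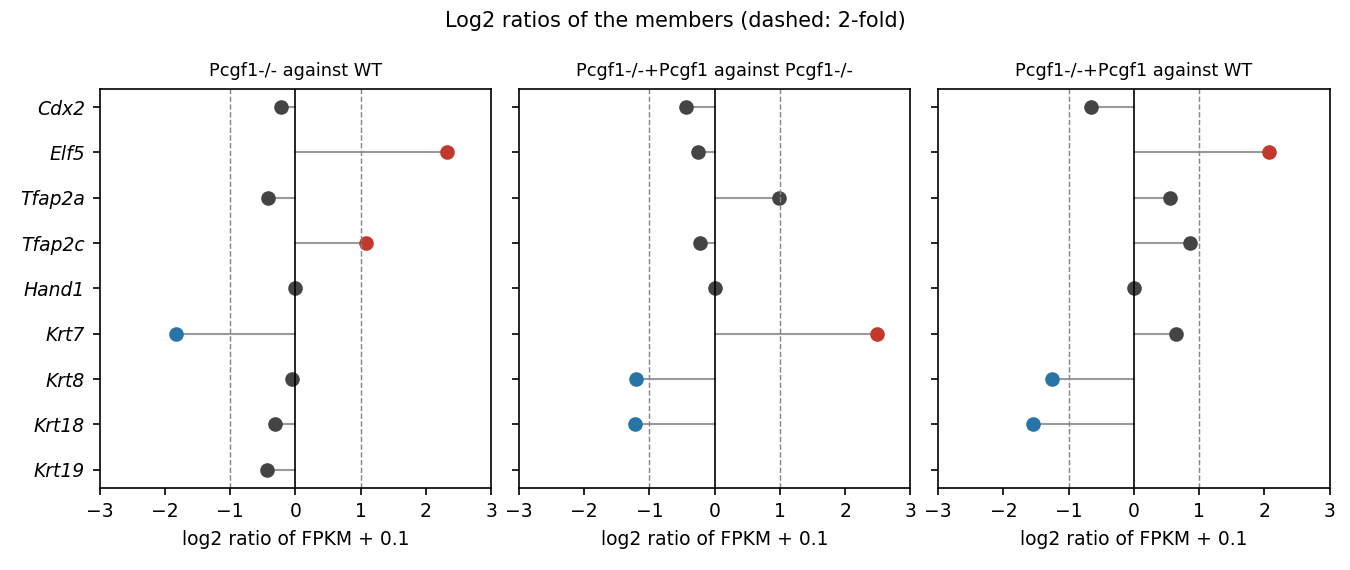
Log2 ratio of FPKM plus 0.1 for the members listed under their own name, in each of the 3 comparisons, with dashed lines at 2-fold and red or blue points for members higher or lower beyond it. Elf5 is right of the line in both comparisons with WT, Krt7 changes side between the first 2 panels, and Krt8 and Krt18 are left of the line in both comparisons of Pcgf1-/-+Pcgf1.

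Elf5 (ENSMUSG00000027186, chromosome 2 of mm10, 103411688 to 103450989, plus strand) encodes an ETS factor that marks trophoblast stem cells and whose promoter is silenced by DNA methylation in ES cells. It stood at 0.1532 FPKM in WT, 1.1723 in the knockout and 0.9667 in the rescued cells. Both samples of knockout origin were thus above WT and close to each other. The log2 ratio was 2.33 for Pcgf1-/- to WT, -0.25 for Pcgf1-/-+Pcgf1 to Pcgf1-/- and 2.07 for Pcgf1-/-+Pcgf1 to WT. With a pseudocount of 1 FPKM both ratios to WT came under the limit, at 0.91 and 0.77. All these levels are low, and the number of fragments behind them is not known.

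The Elf5 signal did not come from 1 first exon in all samples. The files give an FPKM for each first exon, and in Pcgf1-/- the whole of it was at the first exon of the transcripts Elf5-201 and Elf5-207 (103424062 to 103424188). That exon had 0.0598 in WT, 1.1723 in the knockout and 0.7194 in the rescued cells. The most upstream first exon was listed at 0 in WT and Pcgf1-/- and had 0.2473 in Pcgf1-/-+Pcgf1. Another first exon, of Elf5-203, had 0.0934 in WT and was listed at 0 in the others. The last exons carried little or none of this signal: their sum was 0 in WT and Pcgf1-/- and 0.3062 in Pcgf1-/-+Pcgf1, so the ratio of Elf5 rests on first exons, and last exons alone gave a log2 ratio of 0 between knockout and WT. The promoter of the exon that carried most signal in the knockout is printed because the difference lies there. It covers chr2:103423818-103424097 on the plus strand in GRCm38.p6, the assembly of mm10, from RefSeq, and runs from 250 bases before the RefSeq start to 30 bases after it. It was searched on both strands for 5 motifs, the TATA box letters TATAAA, the CCAAT box, the GC box letters GGGCGG, the AP-1 type letters TGANTCA and the AP-2 type letters GCCNNNGGC. No match was found, so it has no capitals.
Elf5, second start: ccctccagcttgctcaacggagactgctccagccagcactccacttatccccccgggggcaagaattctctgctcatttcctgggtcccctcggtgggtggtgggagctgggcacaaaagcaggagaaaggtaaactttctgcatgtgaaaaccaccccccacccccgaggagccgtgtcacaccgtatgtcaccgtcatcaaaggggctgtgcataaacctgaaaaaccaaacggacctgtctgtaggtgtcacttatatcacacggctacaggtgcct

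Tfap2c (ENSMUSG00000028640, chromosome 2, 172549593 to 172558622, plus strand) encodes the AP-2 gamma factor of trophoblast and germ cells. Its FPKM was 9.0958 in WT, 19.3984 in the knockout and 16.5666 in the rescued cells. WT was again the lowest sample. The log2 ratio was 1.08 for Pcgf1-/- to WT, just past the limit, -0.23 for Pcgf1-/-+Pcgf1 to Pcgf1-/- and 0.86 for Pcgf1-/-+Pcgf1 to WT. Where either sample reached 1 FPKM, 2.96% of genes were over 2-fold higher in Pcgf1-/- than in WT.

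Tfap2c had 3 first exons in use, all of which were higher in Pcgf1-/- than in WT. The exon of Tfap2c-201 carried 4.4214 in WT, 9.6987 in the knockout and 7.3071 in the rescued cells. An exon at 172545622 to 172545787, which lies 3971 bases upstream of the GENCODE gene and contains the RefSeq gene start at 172545678, carried 2.7255, 6.6257 and 4.993 in the same order. It made up 29.96% of the gene in WT, 34.2% in the knockout and 30.1% in the rescued cells. The exon of Tfap2c-202 and Tfap2c-206 carried 1.9489, 3.074 and 4.2665, and was the one first exon of the 3 with its highest value in Pcgf1-/-+Pcgf1.

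The other trophoblast factors were low in all samples. Cdx2 (chromosome 5, 147300805 to 147307270, minus strand), the homeobox factor of trophectoderm, had an FPKM of 0.252 in WT, 0.2034 in the knockout and 0.1228 in the rescued cells. Taking the smallest step of the FPKM values as the worth of 1 fragment, that is roughly 11, 10 and 6 fragments on its single annotated transcript, and no ratio passed 2-fold (-0.21, -0.45 and -0.66 for Pcgf1-/- to WT, Pcgf1-/-+Pcgf1 to Pcgf1-/- and Pcgf1-/-+Pcgf1 to WT). With the added 0.1 Cdx2 thus stayed within 2-fold where Elf5 did not. Without it, Cdx2 in the rescued cells was 0.487 of WT, just past 2-fold, on these few fragments. Tfap2a (chromosome 13, 40715302 to 40738376, minus strand), the AP-2 alpha factor, had 0.1976 in WT, 0.1216 in the knockout and 0.3379 in the rescued cells. Its largest log2 ratio, 0.98 for Pcgf1-/-+Pcgf1 to Pcgf1-/-, was just under the limit, and was 1.40 with a pseudocount of 0.01. The value in Pcgf1-/-+Pcgf1 came from a first exon at 40722727 to 40722839 that no annotated transcript starts with, while the values of WT and Pcgf1-/- came from the annotated exon of Tfap2a-202.

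Gata3 (ENSMUSG00000015619, chromosome 2, 9857078 to 9890034, minus strand), a zinc finger factor that works beside Cdx2 in trophectoderm, had 0.5872 in WT, 0.9996 in the knockout and 1.3003 in the rescued cells. All of this lay at the first exon of Gata3-201 (9878405 to 9878600). The log2 ratio was 0.68 for Pcgf1-/- to WT, 0.35 for Pcgf1-/-+Pcgf1 to Pcgf1-/- and 1.03 for Pcgf1-/-+Pcgf1 to WT. With the joined names counted, Gata3 would bring the members past 2-fold to 4 in the last of these comparisons. These ratios rest on first exons, since the last exons of the joined name were listed at 0 in all 3 samples and give a log2 ratio of 0. No strand setting is given in the sources used here, so reads of Gata3 and of its antisense partner cannot be told apart. Hand1 (chromosome 11, 57828705 to 57832818, minus strand) was listed at 0 in all 3 samples, and no fold is given.

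Krt7 (ENSMUSG00000023039, chromosome 15, 101411043 to 101430313, plus strand), a type II keratin of simple and glandular epithelia, had an FPKM of 1.7185 in WT, 0.4105 in the knockout and 2.7545 in the rescued cells. Here the knockout was the low sample and the cells with Pcgf1 added back were the highest. The log2 ratio was -1.83 for Pcgf1-/- to WT, 2.48 for Pcgf1-/-+Pcgf1 to Pcgf1-/- and 0.65 for Pcgf1-/-+Pcgf1 to WT. The first 2 ratios share the Pcgf1-/- sample, so a low value in that library alone would give both. With a pseudocount of 1 the first ratio was -0.95, under the limit.

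Krt7 used a pair of first exons. The upstream one (101411043 to 101411241, Krt7-204 and Krt7-205) carried 1.0942 in WT, 0.4105 in the knockout and 1.3702 in the rescued cells. The downstream one (101412402 to 101412779, Krt7-201), at the RefSeq start, carried 0.6243 in WT, was listed at 0 in Pcgf1-/- and carried 1.3843 in Pcgf1-/-+Pcgf1. Its share of the gene was 36.3% in WT and 50.3% in Pcgf1-/-+Pcgf1. The last exons of Krt7 were listed at 0 in all samples, so last exons alone give no difference, while the spliced form of an intron between 101414180 and 101416221 carried the full FPKM and its retained form 0.

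The promoter of the downstream Krt7 exon is printed because its signal was the one listed at 0 in the knockout. It covers chr15:101412153-101412432 on the plus strand in GRCm38.p6 (RefSeq). Capitals mark the GC box letters GGGCGG, or CCGCCC on the other strand, of which it holds 4, and the letters GCCNNNGGC, of which it holds 2. The first of these overlaps a GC box. Of 32851 promoters in the RefSeq table, 34.7% hold GGGCGG and 15.4% hold GCCNNNGGC in the same 280 bases. The full 300-base window of Krt7 has 21 CG dinucleotides, against a median of 7.
Krt7: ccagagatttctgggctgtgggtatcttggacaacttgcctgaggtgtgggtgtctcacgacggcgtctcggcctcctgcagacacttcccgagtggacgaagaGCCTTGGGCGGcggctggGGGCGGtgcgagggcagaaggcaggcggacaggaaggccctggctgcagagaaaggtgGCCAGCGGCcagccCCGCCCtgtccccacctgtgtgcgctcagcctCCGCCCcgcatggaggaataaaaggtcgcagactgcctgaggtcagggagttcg

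**Figure D3:**
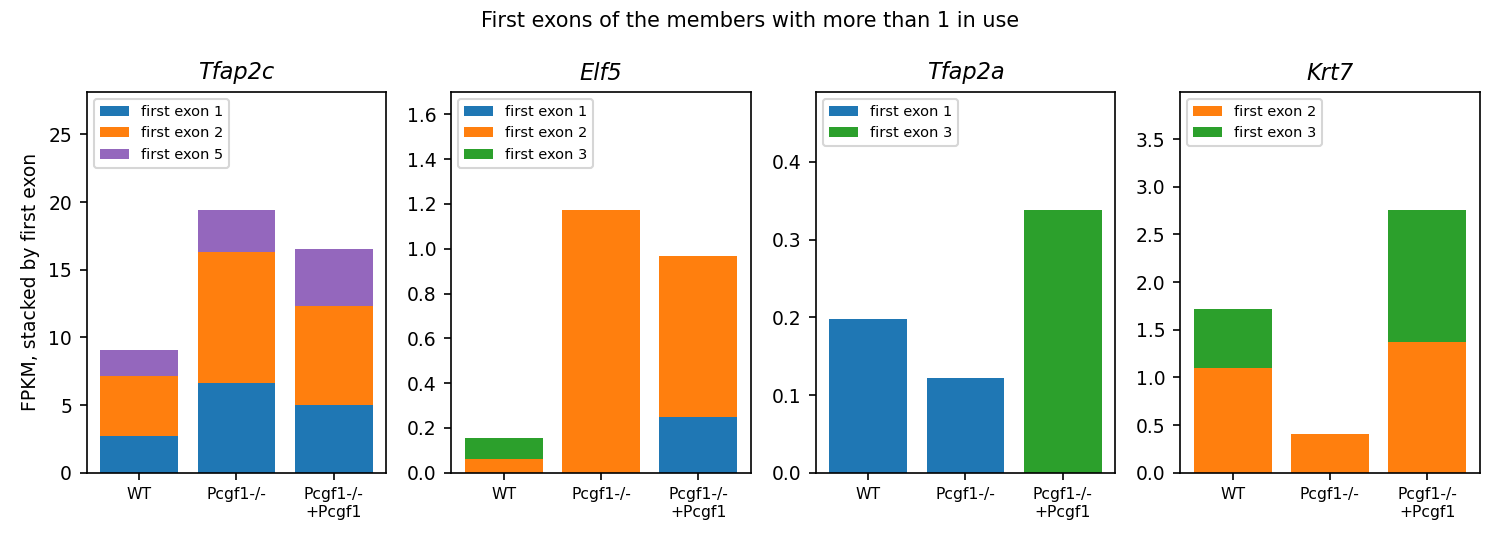
FPKM stacked by first exon for Tfap2c, Elf5, Tfap2a and Krt7, the members with more than 1 first exon above 0, in each sample, with exons numbered along the direction of transcription. The Tfap2c exons are all higher in Pcgf1-/- than in WT, exon 2 makes up the whole of Elf5 in Pcgf1-/-, and exon 3 of Krt7 is missing from the Pcgf1-/- bar.

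Other genes with a low FPKM in the knockout library are given beside Krt7 because feeder cells were present. Of the 16 listed feeder fibroblast markers, 5 were over 2-fold lower and 0 higher in Pcgf1-/- than in WT, beside 5.08% and 2.16% of all genes. In Pcgf1-/-+Pcgf1, 5 were higher and 1 lower than in Pcgf1-/-, beside 6.38% and 2.23% of all genes. Col1a1, a fibrillar collagen, had 1.879 in WT, 0.3904 in the knockout and 2.2099 in the rescued cells, and Thy1, a surface protein, had 14.2139, 6.3891 and 13.4622. Others were not lowest in the knockout, with Twist1, a mesenchymal factor, at 2.0877, 3.1877 and 0.7629 and Dcn, a matrix proteoglycan, at 0.3516, 0.7789 and 1.1787. The summed FPKM of the marker list was 404 in WT, 389 in the knockout and 383 in the rescued cells, and most of it lay in Sparc and Fn1, which are not restricted to fibroblasts. Postn and Fap were listed at 0 in every sample. The part of feeder RNA in the Krt7 values was not tested.

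The second question was which members differed once Pcgf1 was added back. Between Pcgf1-/-+Pcgf1 and Pcgf1-/-, 3 of 8 listed members passed 2-fold, against 8.62% of all 25595 genes, with Krt7 higher and Krt8 and Krt18 lower. Of all genes 6.38% were higher and 2.23% were lower, and of those that reached 1 FPKM 7.25% were higher. The median log2 ratio of the members was -0.24, beside 0 for all genes and -0.01 for those that reached 1 FPKM. Between Pcgf1-/-+Pcgf1 and WT, 3 of 8 passed, against 6.34% of 25580 genes, with Elf5 higher and Krt8 and Krt18 lower. Of all genes 3.96% were higher and 2.38% were lower. The member median was 0.28 here, beside 0 for all genes and -0.11 for those that reached 1 FPKM.

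Krt8 (ENSMUSG00000049382, chromosome 15, 101996698 to 102004482, minus strand) encodes the type II keratin of the simple epithelial pair. Its FPKM was 68.8504 in WT, 66.3198 in the knockout and 28.8609 in the rescued cells. WT and Pcgf1-/- lay side by side and the third sample was the low one. The log2 ratio was -0.05 for Pcgf1-/- to WT, -1.20 for Pcgf1-/-+Pcgf1 to Pcgf1-/- and -1.25 for Pcgf1-/-+Pcgf1 to WT. Krt18 (ENSMUSG00000023043, chromosome 15, 102028180 to 102032027, plus strand), its type I partner, had 61.1236 in WT, 49.0784 in the knockout and 20.9747 in the rescued cells. The same sample was low, with log2 ratios of -0.32, -1.22 and -1.54 in the same order. Among genes that reached 20 FPKM in either sample compared, 3.02% were over 2-fold lower in Pcgf1-/-+Pcgf1 than in Pcgf1-/- and 1.56% were over 2-fold lower than in WT. Both comparisons share the Pcgf1-/-+Pcgf1 library.

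The balance within the pair moved less than its level. The ratio of Krt8 to Krt18 FPKM was 1.13 in WT, 1.35 in the knockout and 1.38 in the rescued cells. Krt8 and Krt18 are neighbours, with 23697 bases between the annotated genes. Of 6 other protein-coding genes within 100 kb of either, the 3 with an FPKM of at least 1 were Eif4b, Tns2 and Spryd3, and 0 of them passed 2-fold in either direction between Pcgf1-/-+Pcgf1 and Pcgf1-/-. Eif4b, a translation factor, had 182 in WT, 160 in the knockout and 164 in the rescued cells. Both keratins have processed pseudogenes in mammals, and how shared reads were assigned is not given in the sources used here.

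The promoters of Krt8 and Krt18 are printed side by side because the pair was lower in the same sample. In GRCm38.p6 (RefSeq) they cover chr15:102004313-102004592 on the minus strand and chr15:102027966-102028245 on the plus strand, each from 250 bases before the RefSeq start to 30 after it. Both starts are also those of the first exons in the files (102004342 and 102028216), and GENCODE starts both genes further upstream. Capitals in Krt8 mark TATAAA on the gene's own strand overlapping TTTATA, the same motif on the opposite strand, which together span the RefSeq start. TATAAA occurs in 13.1% of the promoters. Capitals in Krt18 mark GCCNNNGGC, whose first base is 83 bases upstream of the start. No match of the other motifs was found in either window. The full windows have 6 CG dinucleotides in Krt8 and 17 in Krt18.
Krt8: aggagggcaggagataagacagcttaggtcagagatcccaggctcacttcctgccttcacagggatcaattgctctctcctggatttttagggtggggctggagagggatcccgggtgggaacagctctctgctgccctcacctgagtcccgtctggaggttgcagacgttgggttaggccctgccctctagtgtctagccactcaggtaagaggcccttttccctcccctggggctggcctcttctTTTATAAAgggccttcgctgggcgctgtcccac
Krt18: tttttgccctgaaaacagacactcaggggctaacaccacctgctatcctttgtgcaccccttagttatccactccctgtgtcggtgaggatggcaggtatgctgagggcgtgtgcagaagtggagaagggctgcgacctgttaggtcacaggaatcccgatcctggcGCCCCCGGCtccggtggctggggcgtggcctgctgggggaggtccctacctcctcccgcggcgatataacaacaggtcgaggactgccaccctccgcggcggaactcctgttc

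Krt19 (ENSMUSG00000020911, chromosome 11, 100140810 to 100148665, minus strand), a type I keratin that can pair with Krt8 or Krt7, stood at 32.7534 FPKM in WT against 24.1243 in the knockout, a log2 ratio of -0.44. In Pcgf1-/-+Pcgf1 the same first exon (100145431 to 100146120) was listed under the name joined with Krt15, at 36.2515. That is 0.59 above Pcgf1-/- and 0.15 above WT on the log2 scale. These values rest on the first exon. WT and the knockout had the same sum at last exons as at first exons, but the only last exon listed for the joined name, at 0.0916, lies at the Krt15 gene, so last exons give no value of Krt19 in the rescued cells.

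**Figure D4:**
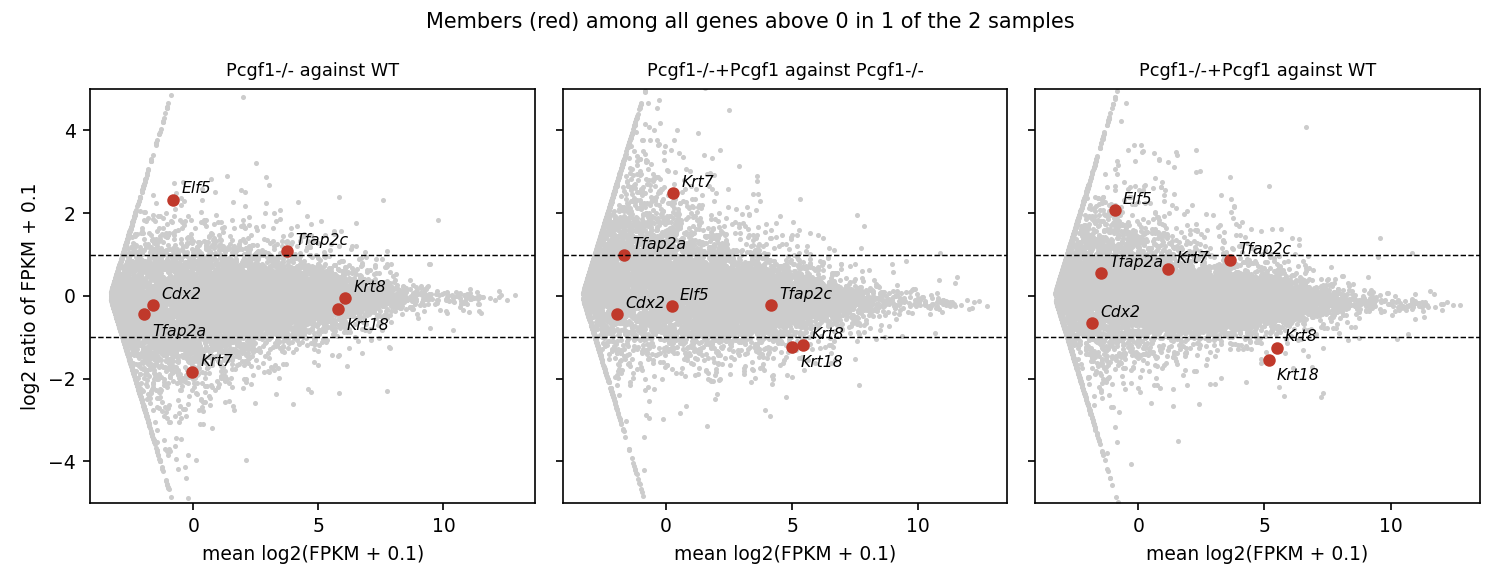
Log2 ratio of FPKM plus 0.1 against the mean of both samples on the log2 scale, for genes listed under their own name in all 3 samples and above 0 in either sample compared (grey), with members in red and dashed lines at 2-fold. Between 44 and 58 genes per panel lie beyond the axis limit of 5 and are not drawn. Krt8 and Krt18 sit at high mean level below the lower line in both comparisons of Pcgf1-/-+Pcgf1, and Elf5 and Krt7 sit at low mean level where grey points spread widely.

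The genes with values most like each member, by the largest difference in log2(FPKM + 0.1) over the 3 samples among all genes with a single name, were next listed. For Elf5 the nearest was its fellow developmental factor Cdx1, within 0.27 in every sample, followed by Gm14412 (0.27) and Nfam1 (0.29). Krt8 was the second nearest to Krt18 (0.46), after the protease gene Ctsb (0.36) and before Ccng1 (0.49). For Krt8 the nearest were Fam129b (0.28), the surface gene Cd24a (0.31) and Ifi30 (0.33). For Tfap2c they were Birc6 (0.24), Htra1 (0.26) and Fdx1 (0.30), and for Krt7 they were Platr26 (0.20), Lrrc27 (0.24) and Tmem100 (0.29).

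Other genes of trophoblast were read from a list of 30, of which 26 were listed in both samples. Between Pcgf1-/- and WT, 6 were over 2-fold higher, 1 was lower and 19 were within 2-fold. Of all genes 2.16% were higher and 5.08% lower. The median log2 ratio was 0.41, beside 0 for all genes and -0.09 for those that reached 1 FPKM. The higher ones were Bmp4, Tbx3, Gata2, Peg10, Tead4 and Gcm1, and the lower one was Plac1. Of these, Tead4, Gcm1 and Plac1 were named after their values were seen, and Gcm1 and Plac1 were below 1 FPKM in both samples. Bmp4, a growth factor that also acts in mesoderm, had an FPKM of 2.6383 in WT, 19.9694 in the knockout and 5.6942 in the rescued cells. Gata2, a relative of Gata3, had 0.6356, 1.7183 and 1.2952. Tead4, which acts upstream of Cdx2, had 4.992 in WT, 10.5639 in the knockout and 4.9532 in the rescued cells, so 1 sample stood high. Eomes and Esx1, further trophoblast stem cell markers, had log2 ratios of 0.62 and 0.69 for Pcgf1-/- to WT and did not pass.

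In the comparison of Pcgf1-/-+Pcgf1 with Pcgf1-/-, 6 of the 26 trophoblast genes were higher and 2 lower, with a median of -0.07. Of all genes 6.38% were higher and 2.23% lower. Tbx3, Rhox6 and Rhox9 stood highest in the rescued cells. Tbx3, a T-box factor also active in ES cells, had 0.2332 in WT, 1.4285 in the knockout and 3.6099 in the rescued cells. The homeobox gene Rhox6 had 5.4897, 10.7087 and 28.353, and its neighbour Rhox9 had 5.0582, 7.0781 and 16.8009. Ascl2, a basic helix-loop-helix factor of the ectoplacental cone, was lowest in the knockout, at 14.683, 8.187 and 19.6613. Between Pcgf1-/-+Pcgf1 and WT, 5 of 27 were higher and 1 lower, with a median of 0.08, beside 3.96% and 2.38% of all genes. Of the genes highest in WT, Id2 had 74.7 in WT, 118 in the knockout and 125 in the rescued cells, and Peg10, an imprinted gene needed in placenta, had 60.3, 139 and 85.6. Neither Yap1, at 34.2, 41.8 and 36.2, nor Igf2, at 24.9, 13.7 and 19.8, passed 2-fold in any comparison.

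Of the paralogs of the member factors with their own name in all samples, 10 of 11 were below 1 FPKM in WT, with Elf3 above. Among 11 listed paralogs of the Tfap2, Gata, Cdx and Elf families and Hand2, 3 were over 2-fold higher in Pcgf1-/- than in WT. These were Cdx1, Gata2 and Gata6, the last below 1 FPKM in both samples. Of the paralogs 0 were lower, and the median was 0.75. Of all genes 2.16% were higher and 5.08% lower. Cdx1 had an FPKM of 0.2044 in WT, 1.0582 in the knockout and 0.8105 in the rescued cells, while Cdx2 stayed within 2-fold of WT in both. Elf3, an epithelial relative of Elf5, had 20.5 in WT, 22.7 in the knockout and 22.6 in the rescued cells. Gata4, a factor of endoderm and heart, had 0.4585, 0.841 and 0.8053. Tfap2e, which had its own name in WT and in the rescued cells, had 2.3575 and 1.6383. Gata2 is counted on this list and among the trophoblast genes. Between Pcgf1-/-+Pcgf1 and Pcgf1-/-, 0 of the 11 were higher and 2 lower, beside 6.38% and 2.23% of all genes. Between Pcgf1-/-+Pcgf1 and WT, 2 of 12 were higher and 0 lower, beside 3.96% and 2.38% of all genes. The paralogs called in these comparisons were below 1 FPKM in both samples compared.

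Of the other keratins with their own name in all samples, 8 of 11 were below 1 FPKM in WT. Between Pcgf1-/- and WT, 0 of 11 listed were higher and 3 (Krt1, Krt12 and Krt80) were lower, with a median of -0.31. Of all genes 2.16% were higher and 5.08% lower. Krt1 and Krt80 were below 1 FPKM in both samples. Between Pcgf1-/-+Pcgf1 and Pcgf1-/-, 5 of 12 were higher and 0 lower, with a median of 0.87, beside 6.38% and 2.23% of all genes. In 3 of these 5 (Krt1, Krt4 and Krt80) the FPKM was below 1 in both samples. Krt12, a keratin of corneal epithelium, had 3.7198 in WT, 0.0797 in the knockout and 2.8052 in the rescued cells, and like Krt7 it was lowest in the knockout library. Krt14, of basal epidermis, had 0.4998, 0.3239 and 1.3986. Krt10, of upper epidermis, was lowest in the cells with Pcgf1 added back, at 1.4653, 0.8481 and 0.3747, and Krt20, of gut epithelium, had 1.5402, 2.211 and 1.2463. Krt42 was listed under its own name in WT, at 40.0, and in Pcgf1-/-+Pcgf1, at 55.6. Krt16 and Krt17 had their own name only in Pcgf1-/-+Pcgf1, at 2.23 and 80.1, so they have no ratio. They were named after their values were seen. In that sample Krt17 stood above Krt8 (28.9) and Krt18 (20.97). The keratins with a name in all samples thus leave out some with high values. Between Pcgf1-/-+Pcgf1 and WT, 2 of 12 keratins were higher and 1 was lower, beside 3.96% and 2.38% of all genes. Of the 6 genes on a further list, of keratin filament partners, Pkp1 and Trp63 had their own name in all samples, both below 1 FPKM. Trp63 encodes a transcription factor and is not itself a filament partner. Trp63, 1 of 4 listed, was over 2-fold higher in the rescued cells than in the knockout, where it was listed at 0. Of all genes 6.38% were higher in that comparison.

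Of the listed genes of epithelial junctions and surface, 16 of 18 reached 1 FPKM in WT. In Pcgf1-/- 2 of 18 were over 2-fold higher than in WT and 0 were lower, beside 2.16% and 5.08% of all genes. Perp, a desmosome protein, had an FPKM of 17.0 in WT, 43.7 in the knockout and 14.03 in the rescued cells, and the desmosomal cadherin Dsg2 had 1.71, 4.52 and 3.57. In Pcgf1-/-+Pcgf1, 0 of 18 were higher and 3 lower than in Pcgf1-/-, beside 6.38% and 2.23% of all genes. The 3 were Perp, Jup and the tight junction protein Ocln. Of the 18 ratios 16 were below 0, with a median of -0.35. The median was 0 for all genes and -0.01 for those that reached 1 FPKM. The share of all genes below 0 is not given here. Between Pcgf1-/- and WT, 15 of the 18 ratios were above 0 and 3 below, with a median of 0.19. Both comparisons share the Pcgf1-/- library, so high values in that library alone would give both. Jup (plakoglobin), which links cadherins to filaments, had 81.1 in WT, 141 in the knockout and 61.4 in the rescued cells. It differed from Krt8 and Krt18 in that it was highest in the knockout. Epcam, a surface protein of epithelial and ES cells, had 176, 193 and 156, the cadherin Cdh1 had 86.4, 100.2 and 76.2, and the claudin Cldn6 had 123, 117 and 71.2. Against WT, 1 of 18 was higher and 0 lower in Pcgf1-/-+Pcgf1, beside 3.96% and 2.38% of all genes.

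Over all 5 related lists, 14 of 67 listed genes passed 2-fold between Pcgf1-/- and WT. Between Pcgf1-/-+Pcgf1 and Pcgf1-/- 19 of 70 passed, and between Pcgf1-/-+Pcgf1 and WT 12 of 70. The shares of all genes, many at 0 in both samples, were 7.23%, 8.62% and 6.34% in the same order. Of genes that reached 1 FPKM in either sample they were 9.16%, 10.8% and 6.44%. Among the ES cell markers, 0 of 8 passed between Pcgf1-/- and WT and between Pcgf1-/-+Pcgf1 and WT. Nanog was the 1 that passed between Pcgf1-/-+Pcgf1 and Pcgf1-/-, with 68.2 in WT, 46.3 in the knockout and 123 in the rescued cells, and Pou5f1 had 670, 518 and 626. Of 7 listed primitive endoderm markers, which share Gata4 and Gata6 with the paralogs, 2 were higher and 0 lower in Pcgf1-/- than in WT. Of all genes 2.16% were higher and 5.08% lower. The 2 higher markers, Gata6 and Sox7, were below 1 FPKM in both samples. Summed FPKM of the 7 was 2.22 in WT, 2.73 in the knockout and 3.002 in the rescued cells.

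**Figure D5:**
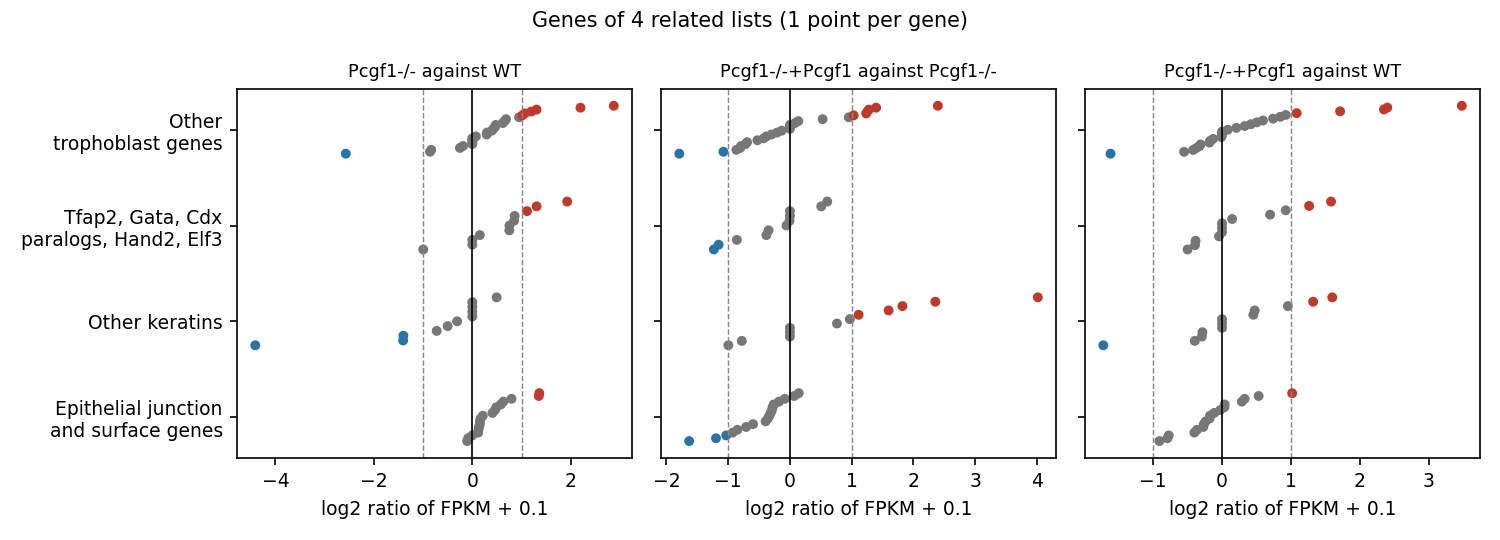
Log2 ratio of FPKM plus 0.1 for each gene of 4 related lists in the 3 comparisons, 1 point per gene, with dashed lines at 2-fold and red or blue points beyond it. In the first panel 6 trophoblast genes and 3 paralogs lie right of the upper line. Of 18 junction genes, 15 lie right of 0 in the first panel and 16 lie left of 0 in the middle panel. These panels share the Pcgf1-/- sample.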

How the data were processed

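RNA-seq of poly-A RNA was analysed in 3 samples, 1 per group, mapped to the mm10 build. The submitters' processing notes name TopHat2 2.0.12, Cufflinks 2.2.1 and HTSeq 0.6.0, and the role of each is not given in the sources used here. Each file the authors deposited lists transcript events with an FPKM for each event. FPKM was summed over first exons and over last exons named for a gene alone, and the larger sum was the value of the gene, and joined names were read apart. Ratios were taken on FPKM plus a pseudocount of 0.1, and over 2-fold was called without a test. For Cdx2, counts of fragments were approximated from the smallest step of FPKM times transcript length, and cover counting only. Depth was otherwise unknown. The members and lists were chosen with earlier results of these data known. Genes named from the lists passed 2-fold in any comparison with an FPKM of at least 1 in a sample compared (at most 6 per list) or were highest in WT (at most 4 per list), and the 3 genes most like each member with an FPKM of at least 1 were named. Coordinates are from GENCODE vM21, and promoters from RefSeq (GRCm38.p6), with 7 members in the promoter table. Alternatives were other pseudocounts (0.01 and 1), first or last exons alone, median-of-ratios scaling, a minimum FPKM of 1 and, added after the data were seen, joined names. Python 3.11.15, pandas 2.3.3, numpy 2.4.6 and matplotlib 3.10.9 were used.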

Additional observations from a re-analysis of the deposited data

Results flagged for a closer look

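Values of 2 members lay under joined names outside the comparisons by gene name. Such values were flagged only when above WT, so their direction is set by the rule and is not a result. Gata3, joined with its antisense gene, had an FPKM of 0.9996 in Pcgf1-/- and 1.3003 in Pcgf1-/-+Pcgf1, against 0.5872 in WT. Krt19, joined with Krt15, had 36.2515 in Pcgf1-/-+Pcgf1, against 32.7534 in WT under its own name. These differences were not tested.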

How the results depend on the processing

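No paired analysis was possible because each group had 1 sample and the labels give no replicate numbers, and for the same reason no replicate could be left out. Of 140 recomputed member ratios 132 stayed on their side of 2-fold, and 0 of those past 2-fold turned direction. Many of them could not move. First exons alone repeated the main ratio of each member, because no member had a larger sum at last exons. A minimum FPKM of 1 left member ratios unchanged, and Hand1, listed at 0 in all samples, gave 0 in each setting. The 132 is therefore no measure of robustness. The 3 members called between Pcgf1-/- and WT became 1 with a pseudocount of 1 FPKM and 1 with last exons alone. Elf5 then had log2 ratios of 0.91 and 0, and Krt7 of -0.95 and 0, while Tfap2c had 1.01 with a pseudocount of 1. Last exons alone gave Elf5 2.02 and Krt7 0 for the log2 ratio of Pcgf1-/-+Pcgf1 to Pcgf1-/-. Among the genes of the 5 lists, the 14 called between Pcgf1-/- and WT became 5 with a pseudocount of 1 and 9 with an FPKM of at least 1, the 19 between Pcgf1-/-+Pcgf1 and Pcgf1-/- became 7 and 12, and the 12 between Pcgf1-/-+Pcgf1 and WT became 3 and 7, and 19 with a pseudocount of 0.01. Over all genes, the 1853 called between Pcgf1-/- and WT became 3324 with a pseudocount of 0.01, 467 with 1 and 878 with an FPKM of at least 1. The 2206 between Pcgf1-/-+Pcgf1 and Pcgf1-/- became 3696, 593 and 1054, and the 1622 between Pcgf1-/-+Pcgf1 and WT became 3024, 333 and 630. Scaling by the median of ratios shifted log2 ratios by 0.11 for Pcgf1-/- to WT and changed no call of a member. It moved the counts over 2-fold of the related lists by at most 1 gene in a direction. Counts by sign moved more. For Pcgf1-/- to WT, the junction genes with a ratio above 0 went from 15 to 18 of 18. With joined names counted, 4 members passed 2-fold between Pcgf1-/-+Pcgf1 and WT. A larger pseudocount shrinks ratios of low FPKM by construction, and a smaller one enlarges them. A minimum FPKM can only remove genes from a count. The last-exon sums of Elf5 and Krt7 were 0 in WT and Pcgf1-/-, which sets their last-exon ratio of Pcgf1-/- to WT at 0. Why these sums were 0, and the cause of any other shifts, was not tested.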
